A study of Mus musculus with 11 samples.

Results

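Loss of Tlr9 and loss of Stat3 were set together against the wild type in CD11b-positive myeloid cells of irradiated mouse tumours, to describe what both losses share. All 11 libraries of the series entered the comparison, which covers 3 libraries from wild-type hosts (WT), 4 from TLR9-/- hosts (TLR9KO) and 4 from STAT3-/- hosts of the MxCre/Stat3flox cross (STAT3KO). Every host had a C57BL/6 background. In each group, tumours growing under the skin received a local dose of 15 Gy, were taken out 4 days later, and gave CD11b-positive cells by antibody and magnetic bead enrichment. No unirradiated tumour was analysed here, so every difference is one between irradiated tumours. MxCre is driven by an interferon-inducible promoter that is active in many cell types, so the Stat3 deletion is not limited to myeloid cells. The labels do not say that replicates came from separate animals, and the p-values therefore measure the spread between these libraries, which may be technical.

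Expression was measured in RPKM, which divides a gene's reads by its transcript length and the reads of the library. It was compared as log2(RPKM + 1), a scale that understates the changes of low genes. The value of a gene in the knockouts was the average of the STAT3KO mean and the TLR9KO mean, and its difference from the WT mean was tested with limma, with Benjamini-Hochberg adjustment over 10557 genes. A gene was counted as shared where all 8 knockout libraries lay above the highest WT library, or all 8 lay below the lowest. Of the 10557 genes that averaged 1 RPKM or more over the 11 libraries, 2595 (24.6%) met this rule, 1771 above the WT range (16.8%) and 824 below it (7.81%). Estimated from the steps of the values, depth reached up to 53.5 M reads per library, and 1 RPKM in a 2 kb transcript was worth 60 to 107 reads. The rule and the test use the same libraries, so neither supports the other.

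TLR9 is an endosomal receptor for CpG-rich DNA, and its ligation leads through the adaptor MyD88 to NF-kB and to interferon regulatory factors. STAT3 is a transcription factor that cytokines of the IL-6 and IL-10 families activate through JAK kinases, and NF-kB in turn drives transcription of Il6. In tumour myeloid cells STAT3 is known to restrain interferon-stimulated and inflammatory genes and to promote angiogenic factors.

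Each targeted gene was lowest in its own knockout group. Stat3 stood at 19.69, 15.74, 19.55 and 17.77 RPKM in STAT3KO, at 64.69, 68.76, 58.50 and 65.31 RPKM in TLR9KO and at 70.66, 72.47 and 76.12 RPKM in WT. The TLR9KO libraries thus lay below every WT library too, but their difference from WT did not pass (log2 -0.18 ± 0.09, limma adjusted p = 0.151). Tlr9 was at 3.53, 6.15, 7.70 and 5.71 RPKM in TLR9KO, 20.53, 41.56 and 28.86 RPKM in WT and 20.71, 19.17, 61.05 and 29.04 RPKM in STAT3KO. The STAT3KO and WT values of Tlr9 overlapped, and Tlr9 is therefore not among the shared genes.

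Markers of the labelled cell type were present. Macrophage markers such as Csf1r, Cd68 and the C1q genes summed to 4583 to 5681 RPKM in WT, and T and NK cell markers to 4.05 to 21.47 RPKM. Melanocyte markers were present as well, at a summed 453.8 to 1446 RPKM in WT, 833.9 to 1282 RPKM in STAT3KO and 487.9 to 1394 RPKM in TLR9KO, and 0 of the 7 passed the test. Monocyte markers summed to 293.3 to 583.5 RPKM in WT, 769.5 to 2638 RPKM in STAT3KO and 593 to 1164 RPKM in TLR9KO. These sums did not overlap between WT and the knockouts, by a small margin in TLR9KO. Of the 5, 1 rose and 1 fell, beside 26.9% and 14.1% of all genes. As single genes, 0 of the 5 lay outside the WT range in all 8 knockout libraries, beside 24.6% of all genes. Dendritic cell markers summed to 141.3 to 224.1 RPKM in WT, 30.26 to 70.55 RPKM in STAT3KO and 81.96 to 156.1 RPKM in TLR9KO, and 1 of the 4 tested fell. The part of these cell types in the results below was not tested. Itgam, which encodes CD11b itself, was lower in the knockouts by a small margin (log2 -0.41 ± 0.15, limma adjusted p = 0.0475) and not outside the WT range in all 8 libraries. In bulk RNA, fewer cells of a type and less RNA per cell cannot be told apart.

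Across all genes tested, 4337 (41.1%) passed the limma threshold in the average of both knockouts, of which 2845 rose (26.9%) and 1492 fell (14.1%). Against the same WT libraries, 44% of the genes passed in STAT3KO alone and 30.6% in TLR9KO alone. A change of at least 2-fold was reached by 207 of the genes that rose and 120 of those that fell. Among the 2595 shared genes, the average change was at least 2-fold for 227, and it was at least 2-fold in each knockout on its own for 117, of which 97 lay above and 20 below the WT range. The shared genes above the WT range had a median log2 difference of 0.63 in STAT3KO and 0.52 in TLR9KO, and those below it -0.46 and -0.42. Both sets of differences are taken from the same 3 WT libraries. At the edge of the rule stood Cenpa, whose lowest knockout value of 16.49 RPKM was just above the highest WT value of 16.48, and Sgpl1, whose highest knockout value of 100.96 RPKM was just below the lowest WT value of 100.98. Just inside the range were 2700097O09Rik, where both values were 1.71 RPKM, and 1110008L16Rik, where both were 2.34 RPKM.

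The differences followed the base composition of the transcripts, which touches every count given here. Of the quintile of genes with the lowest GC content (median 41.6%), 35% lay above the WT range and 0.623% below it, while in the highest quintile (median 57.7%) 4.46% lay above and 15.4% below. The contrast between the lowest and the highest quintile, as each library's median log2 deviation, was -0.447 and -0.473 in WT replicates 1 and 3, -0.068 in WT replicate 2, -0.146 to 0.082 in STAT3KO and 0.145 to 0.298 in TLR9KO. WT replicate 2 lay within the STAT3KO range. After each library was corrected for GC content and transcript length, 1118 of 10429 genes (10.7%) lay above and 826 (7.92%) below the WT range. Of the shared genes with known composition, 807 of 1743 above and 422 of 818 below kept their side. The share of called genes that rose was 65.6% as deposited, 52.6% after median-ratio scaling and 52.4% after the correction. Median-ratio scaling alone put 1397 genes above and 1213 below the WT range. Corrected values stand beside many of the gene groups below, but not beside every list or gene.

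**Figure D1:**
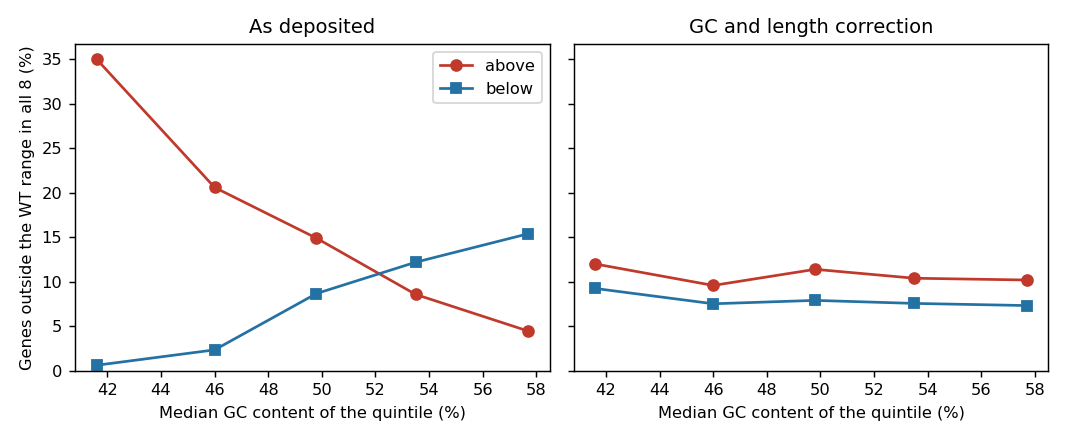
Percent of genes outside the WT range in all 8 knockout libraries (vertical axis) against the median GC content, in percent, of each quintile of the genes (horizontal axis), with red circles for genes above and blue squares for genes below. As deposited (left) the share above falls from 35% to 4.46% with GC content, and after the GC and length correction (right) it stays between 9.59% and 12%.

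The largest shared differences had named genes on both sides. Named first are the 12 rises and 12 falls with the largest change in the weaker of the 2 knockouts, among shared genes that passed and reached a group mean of 5 RPKM. They were picked for the size of their difference, and their p-values describe it without supporting it. Of the 23 with known composition, 22 stayed outside the WT range in all 8 libraries with the GC and length correction, and Espn did not.

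**Figure D2:**
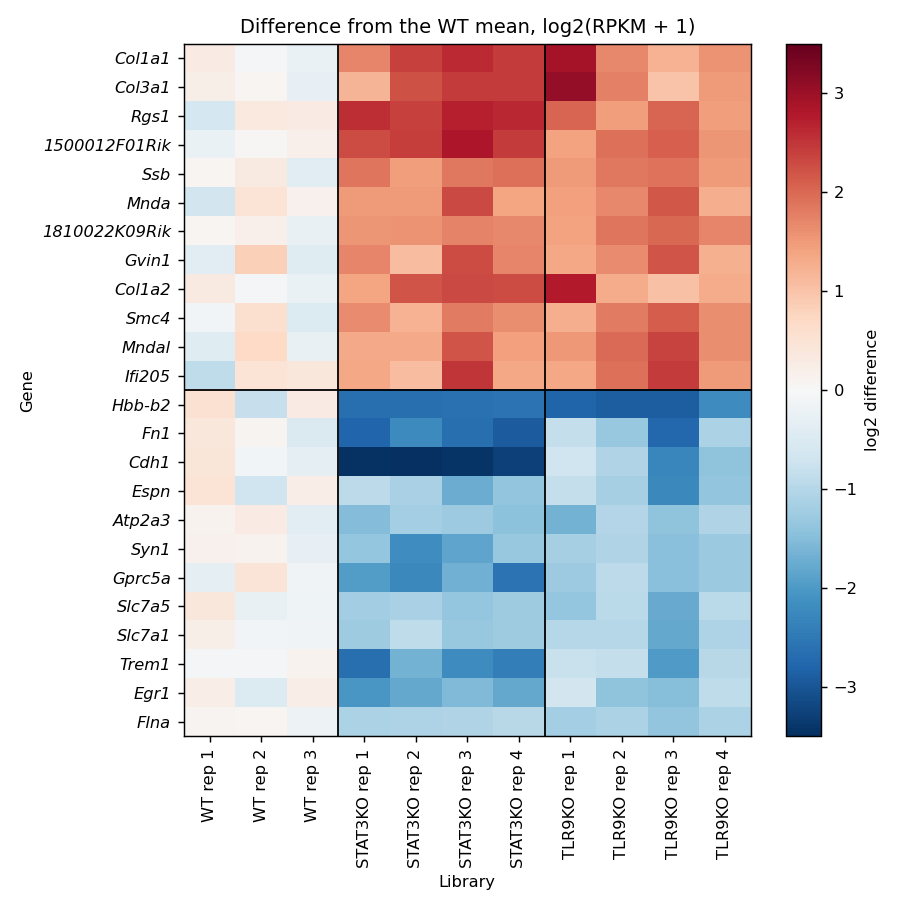
Difference of each library from the WT mean on the log2(RPKM + 1) scale (colour) for the 12 rises (upper rows) and 12 falls (lower rows) with the largest change in the weaker knockout, with 1 column per library. All 8 knockout columns are red in the upper rows and blue in the lower rows, and Cdh1, Fn1 and Trem1 are darker in STAT3KO than in most TLR9KO libraries.

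Interferon-stimulated genes rose and none fell. Of 38 tested members of this list, 20 rose, 0 fell and 18 did not pass, and 14 lay above the WT range in all 8 knockout libraries while 0 lay below. That is 36.8% of the list above the range, beside 16.8% of all genes. Over all genes tested 26.9% rose and 14.1% fell. The list's median log2 difference was 0.72, beside 0.06 over all genes. With the GC and length correction 15 rose and 13 lay above the range, beside 16.6% and 10.7% of all genes. These 13 include members outside the 14, since Ifit3, Isg15 and Mx2 returned into the range. The list's mean log2 value was 4.333, 5.148 and 5.111 in WT replicates 1, 2 and 3, and ran from 5.223 to 6.255 in STAT3KO and from 5.549 to 5.959 in TLR9KO. WT replicate 1 was lowest by a wide margin, and without it 11 members rose. The list's median was 0.71 in STAT3KO and 0.74 in TLR9KO, and 3 members differed between the knockouts.

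The promoters of these genes are shown because they carry a shared element. Interferon-stimulated response elements are bound by complexes that interferon receptors activate and by interferon regulatory factors. Their core was searched as GAAA, any 2 bases and GAAA on both strands in the 250 bases before the RefSeq start of each gene, overlapping matches included. It was found in 239 of 8390 promoters of tested genes (2.85%), in 47 of 1413 above the WT range (3.33%) and in 12 of 670 below it (1.79%). Of the 14 shared interferon-stimulated genes, 9 had a RefSeq promoter and 7 of these held the core (77.8%). These genes come from a list of interferon-stimulated genes, so a high share was likely beforehand and does not bear on the knockouts. The share among list members inside the range was not counted. A match is a description of the sequence, not of binding. The 7 are given 5′ to 3′ on the gene's strand, with 30 bases on either side of the outermost match where the window reaches that far and the matches in capitals. Coordinates are those of GRCm38.p6, not of the build mm9 that the submitters' notes name.
Mnda (chr1:173913047-173913113, minus strand): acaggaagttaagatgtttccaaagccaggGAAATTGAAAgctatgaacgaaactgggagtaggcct
Mndal (chr1:173880188-173880253, minus strand): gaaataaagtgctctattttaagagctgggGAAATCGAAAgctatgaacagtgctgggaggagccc
Ifi205 (chr1:174031850-174031919, minus strand): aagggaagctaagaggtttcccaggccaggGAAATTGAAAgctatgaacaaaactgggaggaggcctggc
Bst2 (chr8:71537557-71537632, minus strand): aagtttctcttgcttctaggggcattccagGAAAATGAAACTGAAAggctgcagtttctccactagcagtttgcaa
Slfn8 (chr11:83020819-83020888, minus strand): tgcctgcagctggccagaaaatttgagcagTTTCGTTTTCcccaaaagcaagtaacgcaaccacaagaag
Isg15 (chr4:156200845-156200926, minus strand): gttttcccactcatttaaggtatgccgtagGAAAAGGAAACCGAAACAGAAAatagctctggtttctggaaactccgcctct
Ifit3 (chr19:34583343-34583446, plus strand): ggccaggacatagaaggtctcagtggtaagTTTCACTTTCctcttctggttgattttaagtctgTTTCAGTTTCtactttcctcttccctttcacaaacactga
The core began 37 bases before the start in Mnda, 36 in Mndal, 134 in Ifi205 and 48 in Slfn8. Bst2 and Ifit3 held 2 matches each and Isg15 held 3, which overlap.

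By the change in the weaker knockout, the list's leading genes were neighbouring members of the interferon-inducible Ifi200 family on chromosome 1, whose proteins sense DNA or regulate transcription in the nucleus. Mnda was at 21.31, 47.63 and 37.21 RPKM in WT, at 96.11, 96.59, 169.75 and 89.08 RPKM in STAT3KO and at 92.68, 110.89, 153.98 and 81.82 RPKM in TLR9KO. Its WT values all lay under the lowest knockout value, and replicate 3 was highest in both knockouts (log2 1.65 ± 0.27, limma adjusted p = 0.000816). Mndal was at 8.02, 18.75 and 9.06 RPKM in WT, 29.49, 29.58, 55.13 and 32.05 RPKM in STAT3KO and 33.67, 46.58, 61.81 and 36.74 RPKM in TLR9KO, a difference of 1.73 ± 0.27 (limma adjusted p = 0.000708). Ifi205 was at 5.88, 16.89 and 15.83 RPKM in WT, 31.54, 25.96, 71.08 and 31.31 RPKM in STAT3KO and 31.86, 47.47, 69.04 and 34.92 RPKM in TLR9KO (1.69 ± 0.36, limma adjusted p = 0.00383). None of the 3 genes differed between the knockouts past the threshold. Genes of this family are near-identical in parts and can share reads, so their separate values are uncertain.

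Bst2 and Slfn8 rose to unlike extents in the 2 knockouts. Bst2, the surface protein tetherin that holds budding virus at the cell membrane, was at 134.25, 179.26 and 221.82 RPKM in WT, 401.57, 375.54, 572.04 and 419.09 RPKM in STAT3KO and 271.53, 302.51, 303.59 and 256.66 RPKM in TLR9KO. Both knockouts lay above WT, and STAT3KO above TLR9KO without overlap (log2 difference of the knockouts 0.62 ± 0.17, limma adjusted p = 0.0214). Slfn8, a Schlafen family gene, was at 2.38, 4.91 and 2.81 RPKM in WT, 5.88, 9.57, 10.62 and 6.51 RPKM in STAT3KO and 20.70, 19.15, 23.07 and 14.00 RPKM in TLR9KO. Here TLR9KO was the higher of the knockouts (-1.16 ± 0.22, limma adjusted p = 0.00504), and the average difference from WT was 1.65 ± 0.21 (limma adjusted p = 0.000239). Gvin1, a very large interferon-inducible GTPase outside the list, was at 5.13, 13.21 and 4.93 RPKM in WT, 25.19, 15.90, 37.79 and 25.26 RPKM in STAT3KO and 19.63, 24.15, 35.70 and 17.93 RPKM in TLR9KO. Its lowest knockout value, in STAT3KO replicate 2, was near the value of WT replicate 2 (average log2 1.65 ± 0.31, limma adjusted p = 0.00186).

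The classical antiviral members moved in the same direction and were chosen for mention after their values were seen. Isg15, a ubiquitin-like modifier, was at 49.01, 105.74 and 125.64 RPKM in WT, 195.83, 146.54, 348.71 and 160.08 RPKM in STAT3KO and 152.95, 216.83, 257.16 and 200.25 RPKM in TLR9KO (average log2 1.21 ± 0.31, limma adjusted p = 0.00978). Ifit3, an inhibitor of viral translation, was at 29.75, 54.21 and 62.49 RPKM in WT, 137.02, 91.38, 232.72 and 140.25 RPKM in STAT3KO and 77.28, 95.66, 111.25 and 65.33 RPKM in TLR9KO (1.23 ± 0.28, limma adjusted p = 0.00549). In TLR9KO replicate 4, Ifit3 was only slightly above WT replicate 3. Both genes, and Mx2, had a value inside the WT range after the GC and length correction. Mx1, Mx2, Oas2, Ifi44, Ifih1, Ifi204 and Rtp4 complete the 14 genes above the range, with average log2 differences from 0.89 (Oas2) to 1.31 (Ifi44).

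**Figure D3:**
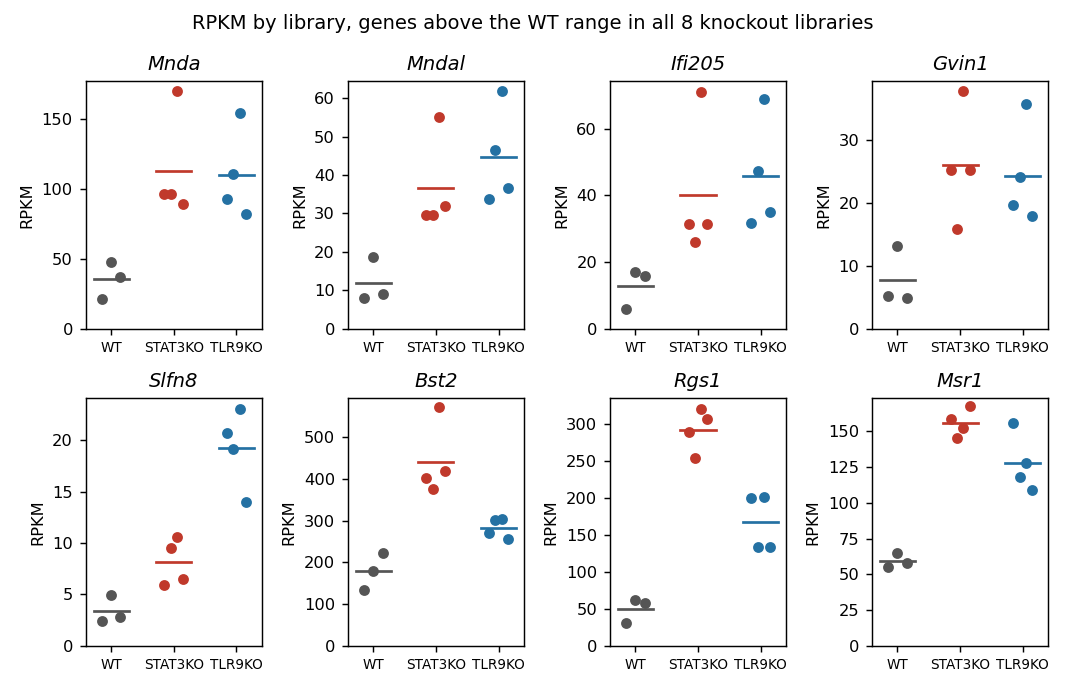
RPKM in each library (vertical axes, from 0) for 8 genes above the WT range in all 8 knockout libraries, with 1 point per library and a line at the group mean. The 3 WT points lie under all knockout points in each panel, and Slfn8 is higher in TLR9KO while Rgs1 and Bst2 are higher in STAT3KO.

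Outside the interferon group, the rises took in signalling, RNA-binding and chromosome genes. Rgs1, a regulator of G-protein signalling that damps chemokine receptors, was at 30.61, 61.35 and 58.00 RPKM in WT, 288.90, 253.57, 319.79 and 305.62 RPKM in STAT3KO and 198.96, 133.12, 200.43 and 133.44 RPKM in TLR9KO. It was higher in STAT3KO than in TLR9KO without overlap (log2 0.83 ± 0.22, limma adjusted p = 0.0208), and its average difference from WT was 2.17 ± 0.21 (limma adjusted p = 5.7e-05). The non-coding 1500012F01Rik, listed as Zfas1 in RefSeq, was at 4.13 to 5.74 RPKM in WT, 27.97 to 41.27 RPKM in STAT3KO and 14.87 to 24.36 RPKM in TLR9KO (2.12 ± 0.16, limma adjusted p = 2.81e-05). Ssb, the La protein that binds newly made RNA polymerase III transcripts, was at 7.87, 9.55 and 5.47 RPKM in WT, 30.14, 22.32, 29.45 and 31.02 RPKM in STAT3KO and 22.67, 29.50, 30.41 and 22.86 RPKM in TLR9KO. The knockouts did not differ in Ssb past the threshold (0.10 ± 0.17, limma adjusted p = 0.699). Smc4, a condensin subunit, was at 0.93 to 3.00 RPKM in WT, 5.31 to 8.41 RPKM in STAT3KO and 5.54 to 10.75 RPKM in TLR9KO. The uncharacterised 1810022K09Rik was at 2.98 to 4.47 RPKM in WT, 12.91 to 15.01 RPKM in STAT3KO and 11.68 to 18.14 RPKM in TLR9KO. Ssb, Smc4 and 1810022K09Rik have low GC content (38.1%, 40.2% and 38.0%), and 1810022K09Rik had an average log2 difference of 1.69 as deposited and 0.88 with the correction.

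Msr1 and Apoe, genes of lipid handling in macrophages, were among the rises. Msr1, a scavenger receptor for modified lipoproteins, was at 55.37, 65.12 and 57.81 RPKM in WT, 158.40, 145.33, 152.03 and 167.49 RPKM in STAT3KO and 155.61, 118.01, 128.10 and 108.81 RPKM in TLR9KO. The 3 WT values were close together and far below the knockouts (log2 1.23 ± 0.11, limma adjusted p = 3.5e-05). Apoe, a lipid carrier, was at 729.55, 721.08 and 455.79 RPKM in WT, 2086.07, 3743.99, 2618.01 and 4059.45 RPKM in STAT3KO and 857.05, 803.77, 1068.99 and 931.93 RPKM in TLR9KO. Its difference in TLR9KO alone did not pass (0.55 ± 0.24, limma adjusted p = 0.109), and the knockouts differed by 1.73 ± 0.23 (limma adjusted p = 0.000741). Of 24 tested cholesterol and lipid handling genes, 3 rose and 3 fell, beside 26.9% and 14.1% of all genes. The macrophage markers had 5 of 10 members up and 0 down. With the correction 2 of these markers were up and 1 down, beside 16.6% and 15.1% of all genes. The markers had summed levels of 8106 to 11830 RPKM in STAT3KO and 5033 to 8093 RPKM in TLR9KO.

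Of 18 tested inflammatory cytokines, chemokines and enzymes, 5 rose, 3 fell and 10 did not pass, beside 26.9% of all genes that rose and 14.1% that fell. Above the WT range lay Il18, Ccl5 and Ccl12, and below it Il6. Il18, a cytokine released after inflammasome activation, was at 6.74, 9.18 and 7.33 RPKM in WT, 12.17, 14.96, 22.47 and 13.01 RPKM in STAT3KO and 21.22, 24.25, 32.64 and 23.02 RPKM in TLR9KO (average log2 1.24 ± 0.18, limma adjusted p = 0.000426). Ccl12, a monocyte-attracting chemokine, was at 88.23 to 119.03 RPKM in WT, 225.76 to 280.23 RPKM in STAT3KO and 140.71 to 247.93 RPKM in TLR9KO (1.05 ± 0.15, limma adjusted p = 0.000473). Il18 has a GC content of 45.1% over 885 bases and Ccl12 of 42.1% over 537 bases. With the GC and length correction Il18 kept its call (0.68, limma adjusted p = 0.00998), Ccl12 lost it (0.28, limma adjusted p = 0.303), and both fell back into the WT range, as did Ccl5. With the correction 1 member of the list rose and 7 fell, beside 16.6% and 15.1% of all genes.

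Collagen and other matrix genes of fibroblasts were higher in every knockout library at a low level. Col1a1 was at 1.53, 1.02 and 0.78 RPKM in WT, 5.84, 10.04, 11.65 and 10.34 RPKM in STAT3KO and 14.80, 5.76, 3.88 and 5.20 RPKM in TLR9KO (average log2 2.07 ± 0.31, limma adjusted p = 0.000511). TLR9KO replicate 1 was the highest library for Col1a1, and also for Col1a2 and Col3a1. Col1a2 was at 0.40 to 1.03 RPKM in WT, 3.26 to 7.13 RPKM in STAT3KO and 2.34 to 10.26 RPKM in TLR9KO. Col3a1 was at 0.14 to 0.61 RPKM in WT, 2.15 to 6.60 RPKM in STAT3KO and 1.79 to 10.76 RPKM in TLR9KO. The proteoglycan Bgn was at 1.17, 0.94 and 0.84 RPKM in WT, 3.61 to 7.61 RPKM in STAT3KO and 2.95 to 5.92 RPKM in TLR9KO (1.45 ± 0.20, limma adjusted p = 0.000356). These 4 genes are 4 of the 5 tested fibroblast markers (80%, beside 16.8% of all genes above the range), and all 4 kept their side with the correction. The summed level of the 8 fibroblast markers in the files was 24.54 to 68.47 RPKM in WT, 92.15 to 114.4 RPKM in STAT3KO and 28.93 to 113.8 RPKM in TLR9KO, which overlaps with WT. Whether they come from admixed fibroblasts was not tested.

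Cytokines that act through STAT3 were among the falls. Of 20 tested genes of IL-6 and IL-10 family and JAK-STAT3 signalling, 9 fell, 2 rose and 9 did not pass. Over all genes tested 14.1% fell and 26.9% rose. Below the WT range in all 8 knockout libraries lay 5 of the 20 (25.0%), beside 7.81% of all genes, namely Il6, Lif, Osm, Ptpn11 and Stat3 itself, which is deleted in STAT3KO. The list's median log2 difference was -0.22 as deposited and -0.11 with the GC and length correction. Under the correction 7 fell and 0 rose, beside 15.1% and 16.6% of all genes. Il6, Lif and Osm stayed below the range, 3 of the 20, beside 7.92% of all genes.

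The promoters of Il6, of the NF-kB subunit gene Nfkb2 and of the immediate early gene Ier3 are shown because each fell below the WT range and holds a match to the NF-kB motif, searched on both strands as above. Matches were also found in Fos and Bst2, which lay above the range, and in Flna and Fosl2, which lay below it. Ier3 was chosen after its values were seen. The motif was found in 377 of 8390 promoters (4.49%), in 3.04% of those above the WT range and in 4.03% of those below it. Capitals mark the matches, in GRCm38.p6 coordinates.
Il6 (chr5:30013040-30013109, plus strand): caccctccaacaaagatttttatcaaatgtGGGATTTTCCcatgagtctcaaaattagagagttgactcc
Nfkb2 (chr19:46304668-46304736, plus strand): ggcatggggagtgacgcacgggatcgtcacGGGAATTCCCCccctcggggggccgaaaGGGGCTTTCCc
Ier3 (chr17:35821591-35821660, plus strand): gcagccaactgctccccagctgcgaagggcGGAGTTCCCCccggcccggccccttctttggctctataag
The match began 44 bases before the start in Il6 and 92 in Ier3, and Nfkb2 held 3 matches, of which 2 overlap.

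Il6, the cytokine that gives the family its name, was at 4.45, 7.39 and 4.26 RPKM in WT, 0.97, 0.35, 1.33 and 1.44 RPKM in STAT3KO and 2.86, 2.07, 0.97 and 2.79 RPKM in TLR9KO. All 8 knockout libraries were lower than the lowest WT library, with an average log2 difference of -1.34 ± 0.24 (limma adjusted p = 0.00154). STAT3KO and TLR9KO overlapped and did not differ past the threshold (limma adjusted p = 0.0934). Osm, oncostatin M, was at 221.63, 207.28 and 222.16 RPKM in WT, 67.75, 69.68, 100.12 and 57.32 RPKM in STAT3KO and 168.42, 163.24, 107.77 and 162.90 RPKM in TLR9KO. Its fall was larger in STAT3KO (knockout difference -1.03 ± 0.18, limma adjusted p = 0.00301), and TLR9KO alone missed the threshold against WT (-0.55 ± 0.19, limma adjusted p = 0.0503). Lif, leukaemia inhibitory factor, was at 3.18 to 4.19 RPKM in WT and at 0.88 to 2.35 RPKM in the 8 knockout libraries (-0.88 ± 0.17, limma adjusted p = 0.00194). Lif was chosen after its values were seen.

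Tgfb1, the growth factor TGF-beta 1 with roles in matrix formation and in the restraint of immune cells, fell in both knockouts. It was at 336.71, 308.62 and 329.34 RPKM in WT, 156.93, 167.14, 177.47 and 182.61 RPKM in STAT3KO and 176.08, 175.36, 160.44 and 192.33 RPKM in TLR9KO. The highest knockout value, 192.33 RPKM, stood well under the lowest WT value, 308.62 RPKM. The log2 difference was -0.92 ± 0.09 in STAT3KO, -0.88 ± 0.09 in TLR9KO and -0.90 ± 0.08 on average (limma adjusted p = 3.83e-05). The corrected average was also -0.90. Of the 27 tested angiogenic and EGF-family growth factors and matrix enzymes, 7 rose and 6 fell, beside 26.9% and 14.1% of all genes. The shared members were Tgfb1 below and Plau above. Plau, the urokinase that activates plasmin, was at 156.71 to 191.52 RPKM in WT, 284.47 to 387.22 RPKM in STAT3KO and 206.78 to 240.48 RPKM in TLR9KO (0.68 ± 0.11, limma adjusted p = 0.000715). With the correction Plau kept its call and no longer lay outside the range.

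**Figure D4:**
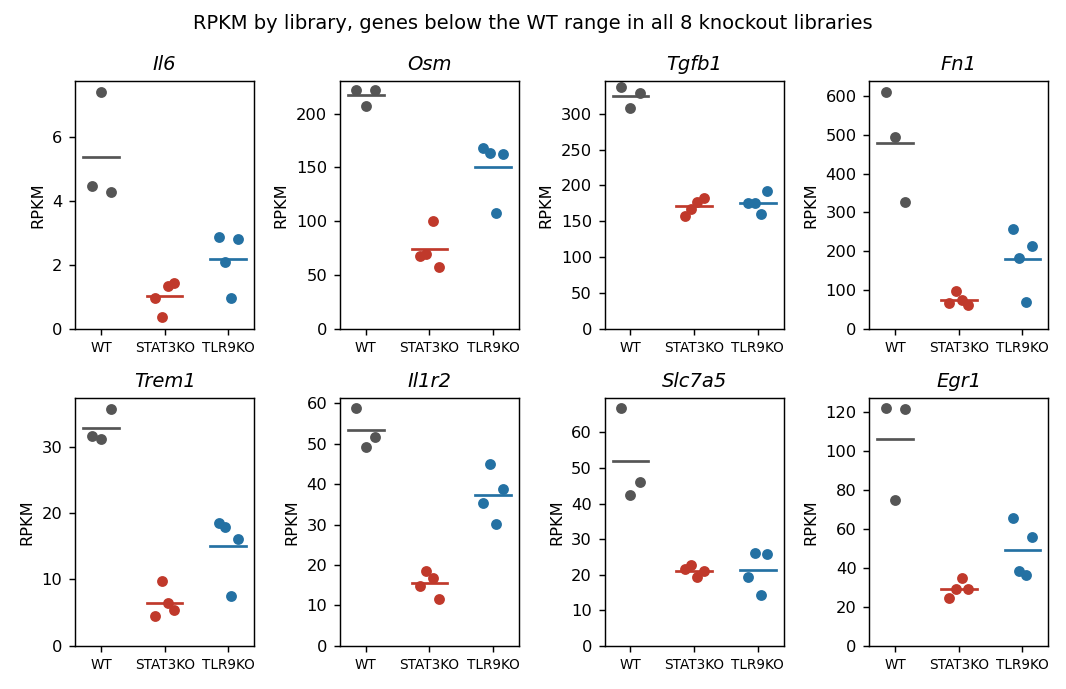
RPKM in each library (vertical axes, from 0) for 8 genes below the WT range in all 8 knockout libraries, with 1 point per library and a line at the group mean. The WT points lie above all knockout points in each panel, and Tgfb1 and Slc7a5 have nearly equal means in both knockouts while Osm, Trem1 and Il1r2 are lower in STAT3KO.

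The receptor genes Trem1 and Il1r2 were lower in all 8 knockout libraries. Trem1, a receptor that amplifies Toll-like receptor responses, was at 31.71, 31.21 and 35.77 RPKM in WT, 4.47, 9.72, 6.39 and 5.36 RPKM in STAT3KO and 18.53, 17.92, 7.57 and 16.17 RPKM in TLR9KO (average log2 -1.69 ± 0.25, limma adjusted p = 0.000529). TLR9KO replicate 3 lay among the STAT3KO values, apart from the other TLR9KO libraries. Il1r2, the decoy receptor for IL-1, was at 58.87, 49.23 and 51.73 RPKM in WT, 14.74, 18.57, 16.71 and 11.70 RPKM in STAT3KO and 35.28, 44.91, 30.02 and 38.90 RPKM in TLR9KO (-1.13 ± 0.14, limma adjusted p = 0.000207). The 3 groups of Il1r2 did not overlap. Il1r2 is 1 of 9 tested neutrophil markers, of which the other 8 did not pass, and the list's summed level was 106.1 to 223.3 RPKM in WT and 94.35 to 638.5 RPKM in the knockouts. STAT3KO replicate 2 stood apart for these markers, with a mean log2 value of 5.601, against 2.377 to 3.180 in the other 10 libraries.

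Fibronectin and E-cadherin fell in both knockouts and further in STAT3KO. Fn1, fibronectin, was at 611.09, 495.06 and 327.52 RPKM in WT, 66.90, 97.18, 73.41 and 60.85 RPKM in STAT3KO and 257.24, 182.29, 67.63 and 214.18 RPKM in TLR9KO (average log2 -2.08 ± 0.35, limma adjusted p = 0.000991). Its direction was opposite to that of the collagens. Cdh1, E-cadherin, which alternatively activated macrophages express as well as epithelium, was at 25.36, 17.45 and 14.83 RPKM in WT, 0.73 to 1.04 RPKM in STAT3KO and 11.14, 8.45, 3.06 and 6.39 RPKM in TLR9KO. The knockouts differed in Cdh1 by -2.05 ± 0.28 (limma adjusted p = 0.000925). Of the 6 epithelial markers Cdh1 was the one that passed the filter on low values, and Krt14 was listed at 0 in every library. Flna, the actin cross-linker filamin A, was at 383.64, 378.57 and 316.77 RPKM in WT, 166.98 to 180.81 RPKM in STAT3KO and 137.82 to 167.12 RPKM in TLR9KO. Its difference was -1.13 ± 0.09 (limma adjusted p = 2.81e-05), or -0.82 once GC content and length were corrected for.

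The amino acid transporter genes Slc7a5 and Slc7a1 fell in both knockouts. Slc7a5, the leucine transporter light chain LAT1, was at 66.97, 42.53 and 46.02 RPKM in WT, 21.47, 22.74, 19.31 and 21.07 RPKM in STAT3KO and 19.44, 26.20, 14.29 and 25.74 RPKM in TLR9KO (average log2 -1.24 ± 0.18, limma adjusted p = 0.000449). Slc7a1, a transporter of arginine and lysine, was at 23.39, 18.58 and 18.34 RPKM in WT, 7.37 to 10.31 RPKM in STAT3KO and 5.12 to 9.49 RPKM in TLR9KO (-1.20 ± 0.17, limma adjusted p = 0.000353). The knockouts differed by 0.02 ± 0.19 in Slc7a5 and 0.05 ± 0.17 in Slc7a1, and neither passed. The remaining large falls were Atp2a3, a calcium pump of the endoplasmic reticulum, at 16.87 to 27.22 RPKM in WT and 6.48 to 10.36 RPKM in the knockouts, and Syn1, synapsin 1, at 10.88 to 15.10 and 2.22 to 6.02 RPKM. Gprc5a, an orphan G-protein coupled receptor, was at 4.87 to 9.21 RPKM in WT, 0.25 to 1.3 RPKM in STAT3KO and 1.71 to 2.95 RPKM in TLR9KO. Espn, which encodes an actin-bundling protein, was at 18.19, 7.58 and 15.27 RPKM in WT and 1.89 to 6.75 RPKM in the knockouts, with a GC content of 62.1%.

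Glycolytic genes leaned downward with a large spread among WT libraries. Of 26 tested hypoxia and glycolysis genes, 10 fell, 0 rose and 16 did not pass. Over all genes tested 14.1% fell and 26.9% rose. The list's median log2 difference was -0.44, and -0.40 with the GC and length correction. Below the WT range lay Pfkp, Slc16a3 and Hk1. That is 11.5% of the list, beside 7.81% of all genes. Pfkp, a phosphofructokinase, was at 185.48, 198.99 and 167.73 RPKM in WT, 76.45, 80.90, 65.15 and 67.42 RPKM in STAT3KO and 96.64, 155.93, 131.61 and 132.99 RPKM in TLR9KO (average log2 -0.93 ± 0.13, limma adjusted p = 0.000368). Slc16a3, the lactate exporter MCT4, was at 306.20, 241.66 and 362.68 RPKM in WT, 125.21 to 173.85 RPKM in STAT3KO and 125.70 to 220.29 RPKM in TLR9KO (-0.93 ± 0.18, limma adjusted p = 0.00187). Hk1, hexokinase 1, was at 73.73 to 104.23 RPKM in WT and 46.12 to 65.40 RPKM in the knockouts. With the correction Slc16a3 returned into the WT range. The list's mean log2 value was 7.447, 6.979 and 7.565 in WT replicates 1, 2 and 3, so WT replicate 2 lay within the range of the knockouts. The count of falls was 3 without WT replicate 1, 15 without WT replicate 2 and 4 without WT replicate 3.

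Immediate early genes, which stimuli induce within minutes through existing transcription factors, did not move as a group. Of 19 tested, 3 rose and 8 fell, beside 26.9% and 14.1% of all genes. Above the WT range lay the AP-1 and ATF members Fos, Jun and Atf3 (15.8%, beside 16.8% of all genes), and below it Egr1, Egr2, Egr3, Fosl2, Ier3 and Nr4a1 (31.6%, beside 7.81%). Fos was at 327.62, 400.73 and 454.95 RPKM in WT, 524.85, 804.68, 789.77 and 565.94 RPKM in STAT3KO and 640.48, 542.23, 751.73 and 667.53 RPKM in TLR9KO (average log2 0.74 ± 0.16, limma adjusted p = 0.00436). Jun was at 111.48 to 122.54 RPKM in WT and 136.77 to 266.42 RPKM in the knockouts, and Atf3 at 139.48 to 190.37 and 245.12 to 409.33 RPKM. Jun, Atf3, Ier3 and Nr4a1 were chosen after their values were seen.

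The EGR zinc-finger factors went the other way. Egr1 was at 122.13, 74.63 and 121.33 RPKM in WT, 24.40, 29.12, 34.87 and 29.09 RPKM in STAT3KO and 65.59, 38.24, 36.49 and 55.79 RPKM in TLR9KO (average log2 -1.45 ± 0.20, limma adjusted p = 0.000373). WT replicate 2 and TLR9KO replicate 1 were the closest pair. Egr3 was at 3.17, 3.79 and 3.21 RPKM in WT, 0.50 to 1.11 RPKM in STAT3KO and 0.95 to 1.64 RPKM in TLR9KO (-1.10 ± 0.13, limma adjusted p = 0.000128). Egr2, which also marks alternatively activated macrophages, was at 79.16, 99.95 and 83.67 RPKM in WT, 16.98, 8.66, 19.75 and 11.91 RPKM in STAT3KO and 64.29, 76.93, 61.52 and 72.09 RPKM in TLR9KO. TLR9KO alone did not pass for Egr2 (-0.34 ± 0.22, limma adjusted p = 0.258), and the knockouts differed by -2.24 ± 0.20 (limma adjusted p = 8.18e-05). Fosl2, an AP-1 partner, was at 60.95 to 100.07 RPKM in WT, 14.94 to 23.27 RPKM in STAT3KO and 38.55 to 59.65 RPKM in TLR9KO. With the GC and length correction 3 members rose and 7 fell, beside 16.6% and 15.1% of all genes, and Fosl2 returned into the range.

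NF-kB signalling genes as a list did not move together. Of 26 tested genes of TLR9 and NF-kB signalling, 3 rose, 3 fell and 20 did not pass. Over all genes tested 26.9% rose and 14.1% fell. The list's median log2 difference was 0.07. With the GC and length correction 3 rose and 0 fell, beside 16.6% and 15.1% of all genes. Below the WT range as deposited lay the NF-kB subunit genes Rela and Nfkb2 (7.69%, beside 7.81% of all genes). Rela, the p65 subunit, was at 37.49, 39.53 and 42.39 RPKM in WT, 30.57, 31.40, 35.43 and 30.98 RPKM in STAT3KO and 33.59, 32.68, 33.58 and 33.08 RPKM in TLR9KO (-0.28 ± 0.07, limma adjusted p = 0.00699). Nfkb2, the p100 precursor of the alternative pathway, was at 34.56, 40.33 and 37.15 RPKM in WT, 13.76 to 28.07 RPKM in STAT3KO and 25.53 to 33.32 RPKM in TLR9KO (-0.55 ± 0.17, limma adjusted p = 0.0232). Both have a GC content of 59.4%, and both lost their call with the GC and length correction (limma adjusted p = 0.439 for Rela and 0.303 for Nfkb2).

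Genes of translation and respiration rose in large number and by small amounts. Of 78 tested cytosolic ribosomal protein genes 51 rose and 1 fell, of 73 mitochondrial ribosomal protein genes 46 rose and 1 fell, and of 73 subunits of oxidative phosphorylation 45 rose and 4 fell, beside 26.9% of all genes that rose. Above the WT range in all 8 knockout libraries lay 35, 35 and 28 of them, beside 16.8% of all genes, and 0, 0 and 2 lay below. With the GC and length correction 30, 23 and 19 rose and 5, 5 and 8 fell, beside 16.6% and 15.1% of all genes. Above the range then lay 27, 16 and 11, beside 10.7% of all genes, and below it 3, 3 and 7, beside 7.92%. Corrected medians were 0.17, 0.12 and 0.08, against 0.49, 0.33 and 0.37 as deposited. Rps24, a protein of the small ribosomal subunit, was at 150.74, 170.53 and 159.00 RPKM in WT, 387.81 to 425.50 RPKM in STAT3KO and 257.01 to 385.62 RPKM in TLR9KO (average log2 1.12, and 0.88 corrected). Rpl26 was at 28.95 to 31.02 RPKM in WT, 72.26 to 92.66 RPKM in STAT3KO and 41.11 to 56.55 RPKM in TLR9KO, and Rpl9 at 176.77 to 212.41, 427.23 to 470.49 and 265.47 to 311.94 RPKM. All 3 kept their side with the correction and rose more in STAT3KO (limma adjusted p = 0.0412 for Rps24, 0.0012 for Rpl26 and 0.000761 for Rpl9). Ribosomal protein genes have many processed pseudogenes that can share their reads.

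The respiratory and mitochondrial members showed how far the correction reached. Cox7b, a subunit of cytochrome c oxidase, was at 23.59, 22.21 and 21.28 RPKM in WT, 68.58 to 88.89 RPKM in STAT3KO and 46.24 to 68.81 RPKM in TLR9KO (average log2 1.53, and 0.85 corrected, still above the range). Cox7c, of the same complex, was at 63.12, 65.69 and 63.85 RPKM in WT, 127.69 to 149.23 RPKM in STAT3KO and 101.01 to 128.22 RPKM in TLR9KO. Its log2 difference of 0.95 became 0.07 with the correction and no longer passed (limma adjusted p = 0.475). Ndufb3, a subunit of complex I, was at 24.10 to 29.09 RPKM in WT and 34.93 to 59.48 RPKM in the knockouts, with 0.84 as deposited and 0.25 corrected. It returned into the WT range with the correction. Among mitochondrial ribosomal proteins, Mrpl46 (0.70, and 0.47 corrected) and Mrpl27 (0.77, and 0.42) stayed above the range, while Mrps33 (0.90, and 0.33) returned into it.

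**Figure D5:**
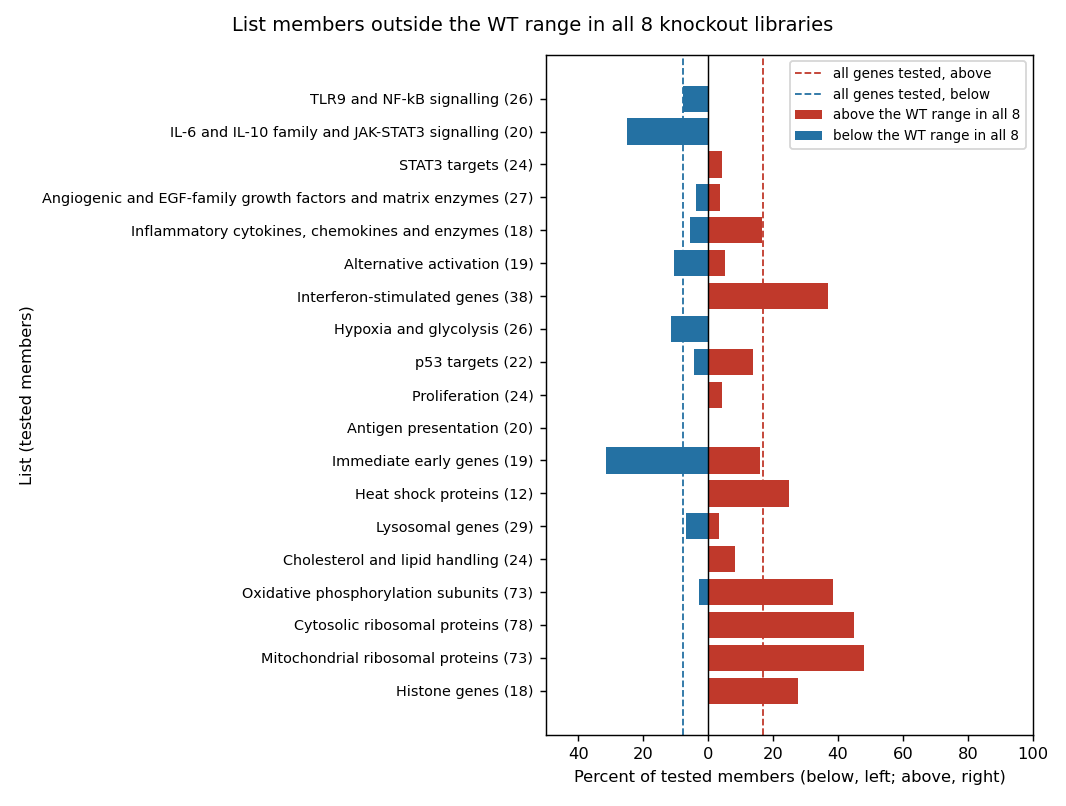
Percent of the tested members of each gene list (number tested in parentheses) that lay below (blue, to the left) or above (red, to the right) the WT range in all 8 knockout libraries, with dashed lines at the 7.81% and 16.8% of all genes tested. Past the right line extend the ribosomal, oxidative phosphorylation, interferon-stimulated, histone and heat shock lists. Past the left line extend the immediate early (31.6%) and IL-6 family (25%) lists. The hypoxia and glycolysis (11.5%) and alternative activation (10.5%) lists extend past it by a small margin. Values are as deposited.

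Smaller groups added single members. Of 22 tested p53 targets 9 rose and 3 fell, beside 26.9% and 14.1% of all genes. Their shared members included Sesn1, a stress-induced antioxidant regulator, at 7.31 to 8.67 RPKM in WT and 10.71 to 24.13 RPKM in the knockouts, and Cdkn1a, the cell cycle inhibitor p21, at 453.31 to 534.43 and 318.92 to 441.35 RPKM. Polk, a translesion DNA polymerase, was at 1.52 to 1.86 RPKM in WT and 1.97 to 3.55 RPKM in the knockouts, a difference whose call was lost with the GC and length correction. With it 6 of the p53 targets rose and 3 fell, beside 16.6% and 15.1% of all genes. Cdkn1a and Polk returned into the WT range. Of 18 tested histone genes 8 rose and 0 fell, beside 26.9% and 14.1% of all genes. Above the WT range lay 5 (27.8%, beside 16.8% of all genes). With the correction, known for 17 of them, 4 rose and 1 fell, beside 16.6% and 15.1% of all genes. Above the range then lay 2 of the 17, a share near the 10.7% of all genes, while Hist3h2a returned into the range. Hist1h2bc was at 20.31 to 24.02 RPKM in WT and 35.85 to 71.93 RPKM in the knockouts, and Hist3h2a at 4.26 to 5.74 and 6.71 to 12.11 RPKM. Hist2h3b was listed at 0 in all 3 WT libraries and at 0.63 to 3.11 RPKM in the knockouts. Histone genes have near-identical copies, so their separate values are uncertain.

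Of 12 tested heat shock genes 3 rose, all chaperones, and 9 did not pass, a share near the 26.9% of all genes that rose. Hspa5, the endoplasmic reticulum chaperone BiP, was at 308.22 to 352.20 RPKM in WT and 366.58 to 507.86 RPKM in the knockouts, Hsp90aa1 at 73.40 to 82.30 and 91.22 to 154.94 RPKM, and Hspe1 at 45.24 to 52.59 and 59.40 to 89.23 RPKM. None of the 3 stayed outside the range with the GC and length correction. Npc1, which exports cholesterol from lysosomes, was at 66.00 to 76.55 RPKM in WT and 36.99 to 65.95 RPKM in the knockouts. Among 24 tested proliferation genes 2 rose, beside 26.9% of all genes. The replication clamp Pcna was at 69.36 to 83.89 RPKM in WT, 131.21 to 197.15 RPKM in STAT3KO and 95.61 to 112.11 RPKM in TLR9KO. With the correction 1 proliferation gene rose, and Pcna returned into the WT range. Of 24 tested STAT3 targets 5 rose and 5 fell, with Fos as the shared gene. Among 20 antigen presentation genes 2 rose, 1 fell and none lay outside the range in all 8 libraries. Both lists stand beside 26.9% of all genes that rose and 14.1% that fell.

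All 5 tested erythroid markers fell, beside 14.1% of all genes. The markers' summed level, over 7 genes in the files, was 56.98 to 223.2 RPKM in WT, 3.64 to 68.35 RPKM in STAT3KO and 0.64 to 4.12 RPKM in TLR9KO. Hbb-b2, an adult beta-globin, was the one below the WT range in all 8 libraries, at 9.77, 3.22 and 8.07 RPKM in WT, 0.20, 0.20, 0.21 and 0.23 RPKM in STAT3KO and 0.07, 0.00, 0.00 and 0.61 RPKM in TLR9KO. The 2 libraries at 0 may hold a failed estimate, and globin genes share reads. With 3.22 RPKM, WT replicate 2 was lowest of the WT libraries for Hbb-b2. Whether erythroid RNA in the WT preparations bears on other differences was not tested.

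Sharing a side did not mean an equal change. Of the 2595 shared genes, 493 (19%) differed between STAT3KO and TLR9KO past the limma threshold, beside 22.8% of all genes tested. Of these, 422 changed more in STAT3KO and 71 more in TLR9KO. Above the WT range the split was 320 and 52, and below it 102 and 19. Cdh1, Egr2, Fosl2, Il1r2, Osm and Apoe are examples that changed more in STAT3KO, and Slfn8 and Il18 of those that changed more in TLR9KO. Ssb, 1810022K09Rik, Tgfb1, Slc7a5, Slc7a1, Flna, Hbb-b2 and the Ifi200 genes are examples whose difference between the knockouts did not pass, which does not show that they changed equally. For Tgfb1 that difference was -0.04 ± 0.08 on the log2 scale, and for Flna 0.14 ± 0.09.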

How the data were processed

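RNA sequencing gave 1 RPKM value per gene symbol and library, for 22068 symbols, deposited by the authors with that unit in the column header of 10 files, per the file headers. For TLR9KO replicate 4 the header leaves the unit out, and the values resemble the others in steps and range. CASAVA 1.7, TopHat 1.3.1, Bowtie 0.12.7, Partek and the build mm9 are named in the submitters' processing notes. Which annotation was used, what read total stands in the denominator and how multiply placed reads were handled is not given in the sources used here. Libraries were grouped by their titles. No symbol column was left out, and 3534 symbols are at 0 in every library.

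RPKM values are not counts, so no count model was fitted. Log2(RPKM + 1) values of the 10557 genes averaging 1 RPKM or more entered 1 linear model with 3 group means in limma 3.58.1 (lmFit, contrasts.fit, eBayes with trend) under R 4.3.3. Tests were two-sided, with Benjamini-Hochberg adjustment over all genes tested and a threshold of 0.05. Errors beside log2 differences are moderated standard errors. Depth was read from the RPKM steps of 26 to 46 microRNA genes per library: at the depth chosen, 74.4% to 100% of their values lay within 0.15 of a whole read. It limits low genes most and was used for description only. The largest share of genes with an identical value in 2 libraries was 0.494%, and every library counted as 1 replicate.

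The members, gene lists (19 of pathways, 12 of cell type markers) and rules were chosen with earlier results of these data known. Named genes are Stat3 and Tlr9, then the 12 rises and 12 falls with the largest change in the weaker knockout among shared genes past the threshold that reach a group mean of 5 RPKM, and up to 3 shared members of each list with the smallest p; results of a few of them are not reported here. GC content and length of the longest GENCODE M21 transcript, known for 98.8% of tested genes, were used to correct each library with splines against the mean of all libraries. Promoters are RefSeq sequences of GRCm38.p6, matched by symbol for 79.5% of tested genes and 49 of the 69 named genes. On simulated data for the average of both knockouts, run on 10557 genes, 81% of 2-fold and 97% of 4-fold changes were recovered and 5.82% of the calls were false. There 100 genes, none of the lowest, were changed at each size and equally in both knockouts. The noise was independent and normal, without a GC trend. Since 41.1% of the real genes passed and a GC trend is present, 5.82% is not the false share of the calls given here. Alternatives were median-ratio scaling, another pseudocount, other filters, the GC and length correction, a replicate block, array weights, the knockouts as 1 group and leaving out each library. Python 3.11.15, pandas 2.3.3, numpy 2.4.6 and matplotlib 3.10.9 handled tables and plots.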

Additional observations from a re-analysis of the deposited data

Results flagged for a closer look

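In groups of 4 libraries, 12 of 138 gene and group combinations held a library far from the other 3, where chance flags about 1 in 20. STAT3KO replicate 3 was high for Mnda (169.75 RPKM, others 89.08 to 96.59) and Mndal (55.13, others 29.49 to 32.05), and low for Hspe1 (69.51, others 76.41 to 77.26). STAT3KO replicate 1 was low for Col1a2 (3.26 RPKM, others 6.51 to 7.13), and STAT3KO replicate 2 low for Ssb (22.32, others 29.45 to 31.02). TLR9KO replicate 1 was high for Col1a2 (10.26 RPKM, others 2.34 to 3.04) and Bgn (5.92, others 2.95 to 3.24). TLR9KO replicate 3 was low for Osm (107.77 RPKM, others 162.90 to 168.42), Trem1 (7.57, others 16.17 to 18.53), Hk1 (46.12, others 63.37 to 65.39) and Slc7a1 (5.12, others 8.84 to 9.49). TLR9KO replicate 4 was high for Hbb-b2 (0.61 RPKM, others 0.00 to 0.07).

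The size of the difference from WT differed between the knockouts for 29 of the 69 named genes, by limma's test of STAT3KO minus TLR9KO adjusted over all genes. These are log2 differences. Besides the targeted genes Stat3 (-1.770) and Tlr9 (2.188), STAT3KO was lower for Egr2 (-2.241), Cdh1 (-2.052), Fosl2 (-1.371), Il1r2 (-1.224), Slfn8 (-1.159), Fn1 (-1.127), Trem1 (-1.076), Osm (-1.028), Gprc5a (-0.885), Pfkp (-0.811), Egr1 (-0.688) and Il18 (-0.678). It was higher for Apoe (1.728), Rgs1 (0.830), 1500012F01Rik (0.757), Pcna (0.633), Bst2 (0.623) and Plau (0.618). All 9 translation and respiration genes named were higher in STAT3KO, with Rpl26 at 0.785, Rpl9 at 0.644, Ndufb3 at 0.568, Mrpl27 at 0.501, Mrpl46 at 0.469, Cox7b at 0.411, Rps24 at 0.393, Mrps33 at 0.367 and Cox7c at 0.302. The largest adjusted p among the 29 was 0.0455, for Fn1.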

How the results depend on the processing

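No named gene changed direction under the 20 alternatives. The GC and length correction gave 1730 genes that rose and 1118 above the WT range, and 8 of 68 named genes lost their call, among them Tlr9, Rela, Nfkb2, Ccl12, Polk, Hspe1 and Cox7c. Of 67 named genes outside the WT range, 20 returned into it with this correction. Among these were Stat3, Espn, Plau, Il18, Slc16a3, Cdkn1a, Pcna, Fosl2 and Hspa5. Counting the knockouts as 1 group gave 3198 calls and lost Stat3, Tlr9, Nfkb2, Egr2 and Apoe. Array weights raised the shared genes that differ between the knockouts to 817. Leaving out 1 library gave 941 (without WT replicate 1) to 1566 falls. It gave 2637 to 3990 genes outside the WT range and 844 to 1509 below it, both highest without WT replicate 2. Without any 1 of the WT libraries the range rests on 2. Without WT replicate 1 the counts were 2926 outside and 938 below, and without WT replicate 3 they were 3110 and 1102. The shared genes that differ between the knockouts numbered 327 (without STAT3KO replicate 4 or TLR9KO replicate 4) to 727. Tlr9 and Nfkb2 lost their call without WT replicate 2 or 3.

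Whether replicate numbers pair the libraries is not settled by these values. Same-number correlations of deviations ran from -0.291 to 0.492, and other pairs reached 0.533. Between the knockouts, the highest were replicate 1 with replicate 1 (0.492) and replicate 3 with replicate 3 (0.446). Replicates 2 (-0.040) and 4 (-0.017) showed no such likeness. A replicate block gave 3780 calls and 362 shared genes that differ between the knockouts. The replicate block with the GC and length correction gave 2653 calls, 1388 of them rises, and 289 such genes.

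With 3 WT libraries a range is narrow, low genes rest on few reads, and the part of the GC trend in the differences was measured with the correction alone.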
